A study of Mus musculus with 24 samples.

Results

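Male mice that stayed with their mother from postnatal day 21 to day 28 were compared with males taken at day 21, the age of standard weaning in the series. The comparison was defined by the age, sex and weaning labels and not by any measured value. The groups compared hold 8 of the 24 libraries of the series. The 4 day 21 males carry the animal numbers 37, 38, 53 and 54, and the 4 males of day 28 with delayed weaning (DW, kept with the mother) carry the numbers 79, 80, 86 and 87. The tissue is inguinal white adipose tissue, the main subcutaneous fat depot of the hind body, and each library holds poly(A) RNA of 1 mouse. Strain, diet, litter and genotype are not given in the labels used here. The series text says that mice were separated from the mother at day 21 or kept with her, and the day 21 males carry the standard weaning label at the age of separation. The groups therefore differ in age and in a further week with the mother together, and the effects of age and of that week cannot be told apart within them. Values of the 4 females of day 21 and the 4 DW females are given below only beside these 8 males. So are those of the 4 males weaned at day 21 and taken at day 28 (standard weaning, SW). All 24 libraries entered 1 fit, so the other animals also set the spread behind the standard errors and p-values. Titles of the day 21 libraries name day 28, and their descriptions and age labels, which name day 21, were followed.

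The inguinal depot of a mouse grows quickly around weaning. Adipocytes take up fatty acids from milk lipoproteins through lipoprotein lipase on the capillary wall, make others from glucose, store them as triglyceride in lipid droplets, and secrete hormones such as adiponectin. New adipocytes arise from progenitors of the stroma, and growth of the depot goes with growth of its capillaries, its basement membranes and its resident macrophages. Young inguinal fat also holds beige adipocytes, which burn fat through the uncoupling protein Ucp1.

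Expression is given in the authors' normalised value, which is a read number divided by a factor of each library, and values of 1 gene are listed for animals 37, 38, 53 and 54 at day 21 and for 79, 80, 86 and 87 in DW. These values are not corrected for gene length, so levels of different genes are not compared. A change is the DW minus day 21 difference of mean log2(value + 1), followed by ± its standard error. It understates changes of genes with low values. Adjusted p-values are from limma across all genes tested, with Benjamini-Hochberg adjustment, and a gene was called at an adjusted p under 0.05. The fit used all 24 libraries, with 1 estimate of spread per gene for all 6 groups. The labels name separate animals but not their litters, so p-values measure the spread between animals within the 6 groups.

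Recovered reads per library, meaning deposited values turned back into whole reads, were 57600711 to 154451057 at day 21 and 103323065 to 131905209 in DW. Day 21 male 53 stands apart. It has 14054 genes with at least 1 read, against 15859 to 15999 in the other 7 males, and against 15780 to 15954 when the other libraries are thinned to its 57600711 reads. Counts that lead a paragraph are therefore given with and without it, and other libraries were left out 1 at a time. The depot's own markers were abundant in all 8 males. Adiponectin (Adipoq) lay between 787 and 1527, and Fabp4, the fatty acid carrier of adipocytes, between 9997 and 15827. Markers of other tissues were also present. The 40 tested skeletal muscle genes summed to 159.9 to 1047 at day 21 and to 703 to 11661 in DW, which overlap, and the 24 tested epithelial genes to 23.0 to 61.9 and 26.9 to 58.9, with 10 of them under 1 in every male.

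Of 16005 genes tested, 2395 (15.0%) were called between day 21 and DW in males. DW males were higher in 1418 (8.86%) and lower in 977 (6.10%). Without day 21 male 53 the count was 1374 (8.58%), with 814 higher and 560 lower. It was 1236 without DW male 87 and 1545 without DW male 86. Of the 2395 genes, 1248 were called both with and without male 53, and all 2395 kept their sign without it. Both fits share all the other animals, so keeping the sign was nearly fixed in advance. It says little about the 1147 calls that were lost. Among the 1418 higher genes, 177 were listed at 0 in male 53, and 112 of these lost their call when it was left out. The 4 and 4 animals did not overlap at all in 3701 genes (23.1%), 2028 of them called. Changes were mostly moderate. The median absolute change of called genes was 0.58, and 271 reached 1 on the log2 scale, 231 up and 40 down. The 231 include skeletal muscle genes such as Myh4 and Ckm, given below. The excess of rises over falls was smaller with other tests. On recovered reads edgeR called 1164 genes higher and 1119 lower, and DESeq2 1646 and 1431. The median change over all genes was 0.02. In the authors' deposited table of the same comparison 5023 genes have an adjusted p under 0.05, 2658 higher and 2365 lower in DW, and they include 2391 of the genes called here, all in the same direction.

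**Figure D1:**
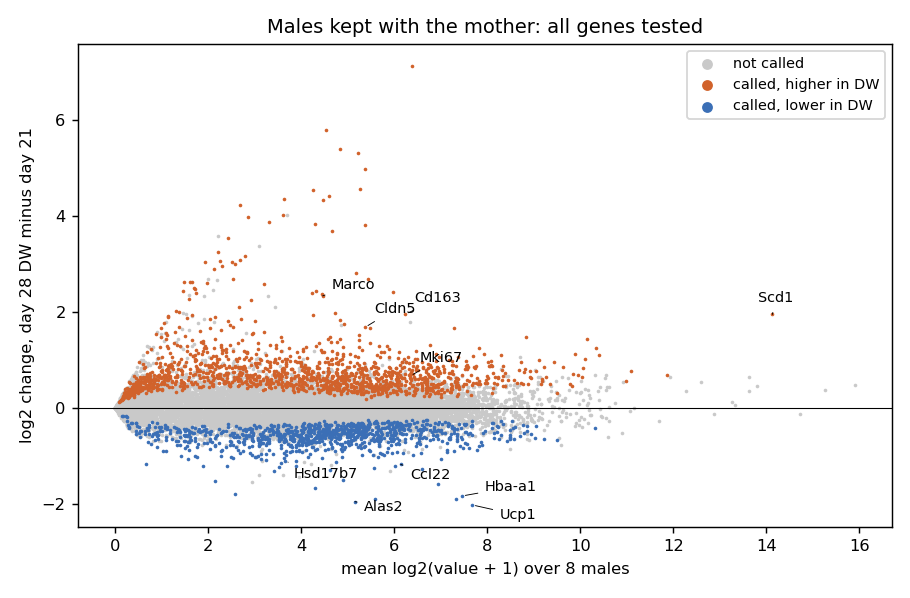
Log2 change from day 21 to DW in males against mean log2(value + 1) over the 8 males, 1 point for each of the 16005 genes tested. Orange points are the 1418 genes called higher in DW and blue points the 977 called lower; Scd1 stands out among the most abundant genes, and most points above a change of 3 are genes of the skeletal muscle list.

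The 23 genes singled out below were the 12 largest rises and 11 of the 12 largest falls among called genes that had a mean log2 value of at least 3, no overlap between the groups and a call without male 53 as well, leaving out muscle and epithelial list genes. Of 865 genes that met these conditions, 471 rose and 394 fell. The rises were Mup11, Mup22, Cd209b, Marco, Col28a1, Cd163, Scd1, Siglec1, Cldn5, Rbp7, Elk4 and Celsr2. The falls were Alas2, Hba-a2, Hbb-bt, Hba-a1, Nme1, Tent5c, Ppp1r3b, Bpgm, Fndc5, S100b and Ccl22. Cd209b, Marco, Cd163 and Siglec1 are receptors of macrophages, and Alas2 and the globin genes are red cell genes.

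**Figure D2:**
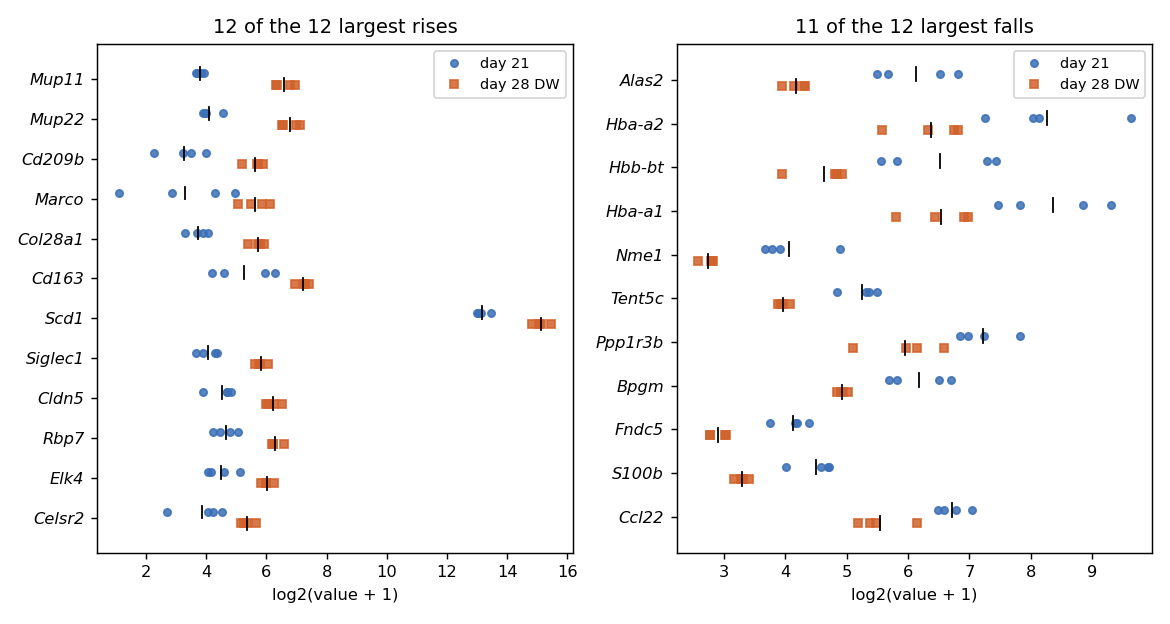
Log2(value + 1) of the 23 genes in each of the 4 day 21 males (blue circles) and the 4 DW males (orange squares), with group means as black ticks. The groups do not overlap in any of these genes, which was a condition for showing them.

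Of 20 tested genes of mature adipocytes, 6 rose and 0 fell in DW males (4 and 0 without male 53), with a median change of 0.40. This and each later list count stands against 8.86% of all genes called higher and 6.10% called lower, and without male 53 against 5.09% and 3.50%. Adiponectin, the insulin-sensitising hormone of fat, was 788, 796, 803 and 787 at day 21 and 1527, 1484, 1355 and 1276 in DW. The day 21 animals were almost equal and every DW male was above them, a change of 0.83 ± 0.14 (adjusted p = 0.00068). Trarg1, a protein of the vesicles that carry the insulin-responsive glucose transporter, was 167, 215, 190.2 and 224 at day 21 and 325, 398, 339 and 434 in DW, with a change of 0.90 ± 0.14 (adjusted p = 0.00036). Pck1, which makes glycerol phosphate for fat storage in adipocytes, went from 581, 903, 533 and 786 to 1328, 2105, 2072 and 2046. All DW males exceeded all day 21 males, and the change was 1.44 ± 0.22 (adjusted p = 0.00036). Cidec, which lets small lipid droplets fuse into a large droplet, was 349.7, 458, 362 and 405 at day 21 and 803, 926, 710.5 and 709 in DW, a change of 1.00 ± 0.24 (adjusted p = 0.0087). Sncg and the glycerol channel Aqp7 were also called, with changes of 0.99 ± 0.29 and 0.58 ± 0.16 (adjusted p = 0.026 and 0.019), but their adjusted p without male 53 was 0.098 and 0.056. Fabp4 had the highest mean of the list and was not called, with a change of 0.36 ± 0.28 (adjusted p = 0.42), although the 4 DW values all lay above the 4 day 21 values. Sncg also lost its call without DW male 79, 80 or 87 (adjusted p 0.06 to 0.075). Aqp7 also lost its call without DW male 86 or 87 (adjusted p 0.061 to 0.063).

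Genes of fatty acid uptake and triglyceride assembly also rose in part. Of 23 tested, 8 rose and 1 fell (6 and 0 without male 53), with a median change of 0.36. Cd36, a fatty acid translocase of the adipocyte surface, was 2124, 1624, 1375 and 1583 at day 21 and 2592, 2502, 2765 and 3609 in DW, a change of 0.78 ± 0.17 (adjusted p = 0.0049). Gpihbp1, the capillary anchor of lipoprotein lipase, was 73.7, 98.7, 87.6 and 106 at day 21 and 174, 168, 172 and 142 in DW, a change of 0.84 ± 0.18 (adjusted p = 0.0047). Angptl4, a secreted inhibitor of that lipase, was 129, 196, 134 and 132 at day 21 and 278, 435, 381 and 311 in DW, a change of 1.24 ± 0.26 (adjusted p = 0.0033). Lipoprotein lipase itself (Lpl) was 5469, 4544, 3971 and 3592 at day 21 and 4877, 5018, 5711 and 6909 in DW, overlapping, and was not called (change 0.36 ± 0.23, adjusted p = 0.31). Acsl1, which activates fatty acids with coenzyme A, changed by 0.56 ± 0.15 (adjusted p = 0.015). Acsl1 lost its call without DW male 87 (adjusted p = 0.053).

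Of 24 tested genes of de novo lipogenesis 1 rose and 2 fell (1 and 0 without male 53), with a median change of -0.02, and this share is near that of all genes called in either direction, 15.0%. The gene that rose was Scd1 (chromosome 19), the desaturase that makes oleic acid from stearic acid. It was 8337, 8233, 8906 and 11317 at day 21 and 28874, 33684, 35360.0 and 45073 in DW. Every DW male had more than any day 21 male, a condition for singling it out, and the change was 1.95 ± 0.41 (adjusted p = 0.0037). Fatty acid synthase (Fasn) was 4072, 4842, 4990.3 and 6951 at day 21 and 5249.9, 7712, 8812 and 8652 in DW, with overlap and no call (change 0.54 ± 0.31, adjusted p = 0.25). ATP citrate lyase (Acly), which supplies its substrate, changed by -0.07 ± 0.29 (adjusted p = 0.9), and acetyl-CoA carboxylase (Acaca) by 0.44 ± 0.25 (adjusted p = 0.25). The polyunsaturated fatty acid desaturase Fads1 fell, from 151, 149, 157 and 130.3 to 96.7, 92.6, 100.3 and 102, a change of -0.58 ± 0.16 (adjusted p = 0.02, and 0.059 without male 53). Mid1ip1, a regulator of acetyl-CoA carboxylase, fell too, with overlap (change -0.67 ± 0.21, adjusted p = 0.041, and 0.11 without male 53). Mid1ip1 also lost its call without day 21 male 38 or 54 or DW male 79, 86 or 87 (adjusted p 0.054 to 0.13) and with the run of animal numbers as a random effect (adjusted p = 0.066).

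Droplet coat and lipolysis genes counted 4 rises and 1 fall among 19 (4 and 1 without male 53), with a median change of 0.21. Plin4, a droplet coat protein, was 851, 909, 726 and 879.9 at day 21 and 2079, 2288, 1603 and 2151 in DW. The groups were far apart, with a change of 1.26 ± 0.21 (adjusted p = 0.00061). Pde3b, through which insulin restrains lipolysis, changed by 0.80 ± 0.17 (adjusted p = 0.0033), and monoglyceride lipase (Mgll) by 0.57 ± 0.17 (adjusted p = 0.025). The receptor Adrb1 fell from 1.56, 2.76, 3.99 and 3.50 to 1.43, 1.34, 0.982 and 1.09, a change of -0.80 ± 0.18 (adjusted p = 0.0061). Among 24 fatty acid oxidation genes 3 rose and 1 fell (3 and 0 without male 53), and the median change was 0.01. Cpt1a, which admits fatty acids to the mitochondrion, had the smallest adjusted p of these. It was 36.9, 34.8, 35.4 and 28.6 at day 21 and 58.2, 63.2, 75.8 and 65.3 in DW, a change of 0.93 ± 0.11 (adjusted p = 3.2e-05). The mitochondrial thiolase Acaa2 fell with overlap (change -0.70 ± 0.21, adjusted p = 0.027, and 0.11 without male 53). Mgll lost its call without day 21 male 37 or 54 or DW male 86 or 87 (adjusted p 0.051 to 0.066). Acaa2 also lost its call without day 21 male 54 or DW male 79, 86 or 87 (adjusted p 0.064 to 0.087) and with the compared groups fitted alone (adjusted p = 0.083).

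Of 19 adipokines and secreted factors 6 rose and 0 fell, also without male 53, with a median change of 0.13. Retinol binding protein (Rbp4) was 106, 123, 124 and 96.3 at day 21 and 197, 183, 193 and 169.8 in DW, a change of 0.73 ± 0.14 (adjusted p = 0.0017), and the activin subunit gene Inhbb changed by 1.05 ± 0.25 (adjusted p = 0.0087). Leptin (Lep), the satiety hormone, was 256, 240.2, 149 and 212 at day 21 and 369, 241, 86.4 and 177 in DW and was not called (change -0.13 ± 0.34, adjusted p = 0.84). Its DW values had the wider spread, with male 79 above and male 86 below all day 21 males. Of 20 adipogenic transcription factors 1 rose and 2 fell (2 and 2 without male 53), with a median change of -0.05, again near the 15.0% of all genes. Rxra, the partner of Pparg, rose by 0.50 ± 0.13 (adjusted p = 0.015). Cebpb, an early factor of adipocyte differentiation, was 8.90, 15.8, 10.2 and 9.57 at day 21 and 5.53, 7.11, 4.64 and 3.27 in DW, a change of -0.99 ± 0.27 (adjusted p = 0.017), and Ebf1 changed by -0.56 ± 0.13 (adjusted p = 0.0086). Pparg, the master factor of adipocytes, changed by -0.15 ± 0.16 and was not called (adjusted p = 0.57). In the list of insulin signalling and glucose uptake 1 of 20 rose and 1 fell (Tbc1d4, change -0.50 ± 0.13, adjusted p = 0.015), the same numbers as without male 53. This is below the 15.0% of all genes called with male 53 and near the 8.58% called without it. Rbp7 (chromosome 4), a cellular retinol binding protein, was among the 12 largest rises: it was 26.7, 32.4, 17.8 and 21.2 at day 21 and 74.0, 72.05, 94.3 and 72.6 in DW, a change of 1.66 ± 0.21 (adjusted p = 4.6e-05). Cebpb lost its call without day 21 male 38 or DW male 87 (adjusted p 0.055 to 0.074).

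Of 23 thermogenic genes 0 rose and 6 fell (0 and 3 without male 53), with a median change of -0.24. Ucp1 was 203, 455, 690.1 and 435 at day 21 and 73.2, 138, 85.2 and 117 in DW. All DW males lay below all day 21 males, the change was -2.02 ± 0.57 (adjusted p = 0.021), and without male 53, which has the highest value, the adjusted p was 0.075. Pank1, which starts coenzyme A synthesis, was 42.9, 46.1, 59.4 and 67.2 at day 21 and 23.8, 29.8, 28.6 and 37.7 in DW, a change of -0.82 ± 0.17 (adjusted p = 0.0035), and Letmd1, a mitochondrial protein of brown fat, changed by -0.64 ± 0.15 (adjusted p = 0.0063). Cidea, the droplet protein of brown and beige cells, overlapped between the groups and was not called (change -0.64 ± 0.37, adjusted p = 0.25). Of 27 nuclear genes of the respiratory chain 0 rose and 7 fell, and none was called without male 53. Cox5a, a subunit of cytochrome oxidase, was 88.3, 80.7, 175 and 72 at day 21 and 44.6, 42.7, 49.7 and 32.3 in DW, a change of -1.20 ± 0.35 (adjusted p = 0.025, and 0.11 without male 53). Branched-chain amino acid breakdown counted 2 rises of 20, 0 without male 53, Ivd and Acadsb (change of Acadsb 0.41 ± 0.12, adjusted p = 0.024). Ucp1 also lost its call without DW male 79 or 86 (adjusted p 0.053 to 0.058). Cox5a also lost its call without DW male 87 (adjusted p = 0.084). Acadsb also lost its call without day 21 male 54 or DW male 87 (adjusted p 0.07 to 0.086).

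Cholesterol synthesis held many falls. Of 24 tested genes 11 fell and 1 rose (6 and 0 without male 53), with a median change of -0.49, and 21 of 24 had a negative sign. Sqle, the squalene epoxidase, was 36.1, 33.5, 23.9 and 29.3 at day 21 and 14.8, 13.3, 15.6 and 13.5 in DW, a change of -1.04 ± 0.22 (adjusted p = 0.0039). Hsd17b7, a late enzyme of the pathway, was 17.7, 16.3, 19.3 and 15.9 at day 21 and 7.94, 7.49, 7.27 and 7.29 in DW, a change of -1.10 ± 0.21 (adjusted p = 0.002). Cyp51, the lanosterol demethylase, was 78.7, 79.1, 74.4 and 74.6 at day 21 and 39.8, 44.7, 49.1 and 38.0 in DW, a change of -0.83 ± 0.18 (adjusted p = 0.0048). In each of these 3 enzymes the groups were well apart. Msmo1 changed by -0.84 ± 0.15 (adjusted p = 0.00083). Insig1, whose protein holds back the pathway's transcription factor in the endoplasmic reticulum, went the other way, from 126, 136, 129 and 129.8 to 241, 209, 179.6 and 178 (change 0.62 ± 0.19, adjusted p = 0.031, and 0.068 without male 53). Hmgcs1 was the uncalled gene with the highest mean (change -0.04 ± 0.18, adjusted p = 0.9). Insig1 also lost its call without day 21 male 37 or 54 or DW male 79 or 80 (adjusted p 0.052 to 0.096) and with the run of animal numbers as a random effect (adjusted p = 0.053).

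**Figure D3:**
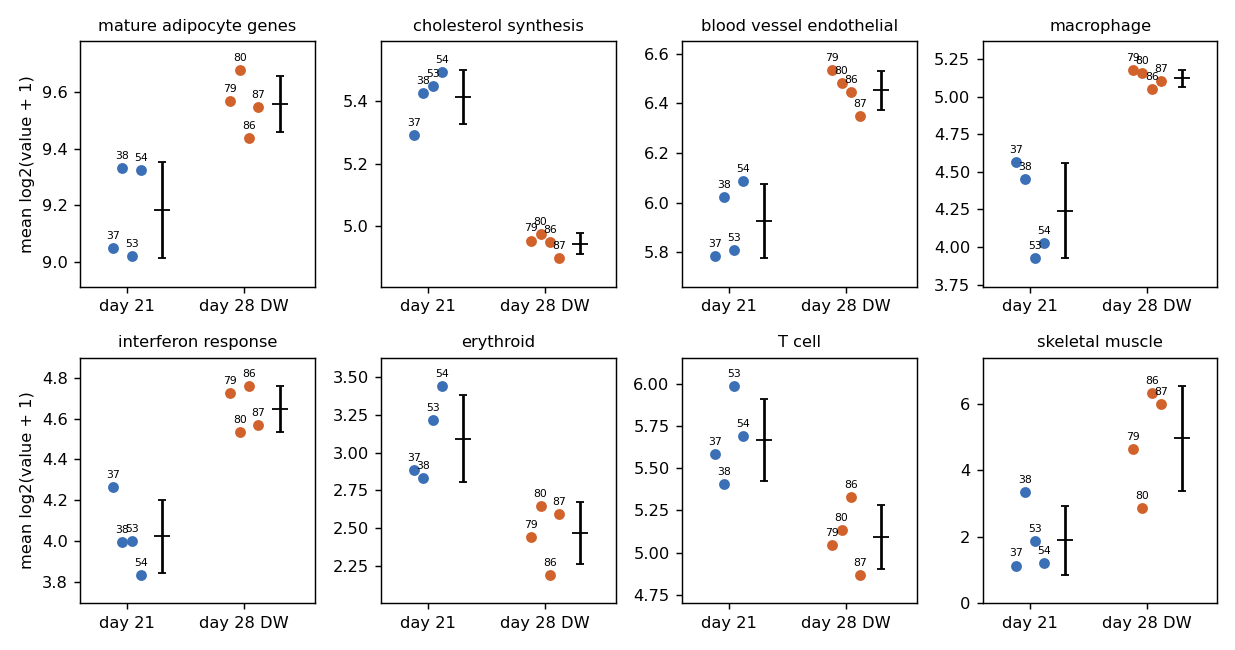
Mean log2(value + 1) over the tested genes of 8 lists in each male, with animal numbers; bars show mean and SD of 4 animals. Mature adipocyte, vessel, macrophage and interferon scores are higher in every DW male than in any day 21 male, cholesterol, erythroid and T cell scores are lower in every DW male, and the skeletal muscle scores overlap.

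Most of the blood vessel genes tested rose. Of 20 tested endothelial genes 12 rose and 1 fell (11 and 1 without male 53), with a median change of 0.61. Their summed values were 1950 to 2267 at day 21 and 2969 to 3293 in DW. Cldn5 (chromosome 16), the tight junction protein of endothelium, was 13.7, 25.0, 24.7 and 27.6 at day 21 and 65.6, 91.2, 74.9 and 62.8 in DW, a change of 1.68 ± 0.25 (adjusted p = 0.00028). Von Willebrand factor (Vwf) was 21.8, 21.7, 18.9 and 27.1 at day 21 and 66.4, 69.2, 61.3 and 49.5 in DW, a change of 1.42 ± 0.20 (adjusted p = 0.00015). In both genes the lowest DW male was well above the highest day 21 male. For Cldn5 a lack of overlap was a condition for singling it out. Aplnr, the apelin receptor, changed by 1.07 ± 0.28 (adjusted p = 0.014) and the adhesion molecule Pecam1 by 0.59 ± 0.12 (adjusted p = 0.0026). Esm1, a marker of sprouting tip cells, was the gene that fell, from 5.36, 6.26, 1.71 and 3.37 to 1.40, 1.34, 1.68 and 1.14 (change -1.02 ± 0.22, adjusted p = 0.0038). The growth factor receptor Kdr had the highest mean of the uncalled genes and overlapped (change 0.07 ± 0.15, adjusted p = 0.8). In whole tissue, more cells of a type and more RNA per cell of that type cannot be told apart, here and in the lists below. The skeletal muscle sums given above overlap between the groups, and their part in the vessel counts was not tested.

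Lymphatic endothelial genes counted 4 rises and 0 falls among 9 (2 and 0 without male 53), with a median change of 0.36. Of the 9 genes, 6 had a positive and 3 a negative sign. Their summed values did not rise and overlapped, at 525 to 737 at day 21 and 462 to 582 in DW. The mean log2(value + 1) of the same 9 genes did not overlap, at 3.82 to 4.17 at day 21 and 4.30 to 4.53 in DW. Thy1, which is on the T cell list too, is among the 9, and its part in the sum was not tested. The scavenger receptor Stab2 was 2.02, 0.977, 3.81 and 4.33 at day 21 and 8.11, 9.22, 6.58 and 7.10 in DW, a change of 1.31 ± 0.32 (adjusted p = 0.0094), and Prox1, the factor that defines lymphatic identity, changed by 0.92 ± 0.20 (adjusted p = 0.0047). Lyve1, the hyaluronan receptor, overlapped (change 0.36 ± 0.27, adjusted p = 0.39).

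Macrophage genes showed the highest share of calls of any list. Of 22 tested 19 rose and 0 fell (14 and 0 without male 53), and the median change was 0.94. Lpl, which adipocytes also express strongly, is on this list; the other 21 genes summed to 529.5 to 722 at day 21 and to 1130.3 to 1272 in DW. Folr2, a folate receptor of resident macrophages, was 21.5, 19.8, 9.75 and 10.6 at day 21 and 41.8, 36.6, 34.8 and 44.3 in DW, a change of 1.37 ± 0.18 (adjusted p = 7.0e-05). Timd4, a receptor for dying cells on long-lived resident macrophages, was 24.0, 19.0, 24.3 and 27.0 at day 21 and 54.9, 68.04, 53.1 and 56.2 in DW, a change of 1.27 ± 0.20 (adjusted p = 0.00047). Csf1r, the receptor of the macrophage growth factor, was 45.0, 44.0, 26.01 and 30.5 at day 21 and 85.0, 90.8, 78.0 and 71.3 in DW, a change of 1.17 ± 0.18 (adjusted p = 0.00045). DW males were above day 21 males in all 3 genes, and in Folr2 and Csf1r the day 21 males 53 and 54 were lower than 37 and 38. The pan-macrophage marker Adgre1 (F4/80) changed by 1.16 ± 0.19 (adjusted p = 0.00071) and lysozyme (Lyz2) by 0.96 ± 0.17 (adjusted p = 0.0012). Retnla, a marker of alternative activation, overlapped and was not called (change 0.62 ± 0.31, adjusted p = 0.18).

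The scavenger receptors and lectins of macrophages gave 4 of the 12 largest rises. Cd163 (chromosome 6), which clears haemoglobin, was 77.5, 60.5, 17.4 and 23.2 at day 21 and 168, 153, 122 and 151 in DW, a change of 1.95 ± 0.37 (adjusted p = 0.002). Siglec1 (chromosome 2), a sialic acid receptor, was 18.7, 19.6, 11.6 and 13.7 at day 21 and 52.4, 65.5, 48.6 and 54.1 in DW, a change of 1.75 ± 0.25 (adjusted p = 0.00014). Cd209b (chromosome 8), a C-type lectin, was 10.4, 3.84, 8.37 and 14.9 at day 21 and 51.6, 58.05, 35.8 and 51.1 in DW, a change of 2.38 ± 0.31 (adjusted p = 7.4e-05). Marco (chromosome 1), a scavenger receptor for bacteria and particles, had the widest day 21 spread of these on the log2 scale. It was 6.20, 1.13, 18.4 and 29.8 at day 21 and 56.4, 68.9, 32.3 and 43.8 in DW, a change of 2.34 ± 0.58 (adjusted p = 0.011), and edgeR gave an adjusted p of 0.044. Marco and Cd209b are also expressed by macrophages of lymph nodes, and the inguinal depot surrounds a node. No marker of lymphocytes, which fill a node, was called higher: of 20 T cell genes 0 rose and 6 fell (0 and 2 without male 53), and of 15 B cell genes 0 rose and 1 fell (0 and 1 without male 53), the latter being Ebf1, which adipocytes express too. The B cell genes summed to 897 to 1527 at day 21 and 941 to 1046 in DW. The T cell genes summed to 1083 to 1675 and 786 to 1051. The antigen receptor chain Cd3g was 68, 52.9, 106 and 66.6 at day 21 and 35.5, 34.1, 38.1 and 29.8 in DW, a change of -1.03 ± 0.19 (adjusted p = 0.0014), and Cd3e changed by -0.92 ± 0.20 (adjusted p = 0.0049). The B cell gene Cd22 overlapped (change 0.14 ± 0.28, adjusted p = 0.78). None of 15 genes of MHC class II presentation was called, and Cd74, the invariant chain, was 184, 228, 511 and 401 at day 21 and 286, 332, 293 and 218 in DW (change -0.13 ± 0.25, adjusted p = 0.78). Their part in the rise of Marco and Cd209b was not tested. Ccl22 (chromosome 8), a chemokine that draws T cells and is made by dendritic cells and macrophages, fell from 94.7, 89.0, 130.2 and 109 to 40.9, 43.6, 69.8 and 35.4, a change of -1.17 ± 0.22 (adjusted p = 0.0015). Marco lost its call with the compared groups fitted alone (adjusted p = 0.066).

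Most interferon response genes tested rose. Of 24 tested 14 rose and 0 fell (9 and 0 without male 53), with a median change of 0.72. Ifit3, an antiviral effector, was 22.6, 14.7, 17.3 and 11.0 at day 21 and 54.1, 34.6, 44.2 and 40.1 in DW, a change of 1.37 ± 0.29 (adjusted p = 0.0037). Irf7, the transcription factor that amplifies the response, was 20.6, 18.1, 19.1 and 20.3 at day 21 and 41.8, 43.5, 45.2 and 32.9 in DW, a change of 1.02 ± 0.24 (adjusted p = 0.0079). Ifi44 changed by 1.14 ± 0.25 (adjusted p = 0.0044) and Oasl2 by 1.12 ± 0.25 (adjusted p = 0.0054). In each of these 4 genes the lowest DW male was above the highest day 21 male.

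Matrix genes rose in part. Of 19 collagen genes 6 rose and 0 fell, but 1 rose and 0 fell without male 53, near the 5.09% of all genes, with a median change of 0.50 and of 0.36 without it. Col4a1, a chain of basement membrane collagen, was 729.8, 1039, 857 and 1123 at day 21 and 1989.6, 2216, 1799.5 and 1940.1 in DW, a change of 1.10 ± 0.24 (adjusted p = 0.0043). Col4a2, its partner chain, changed by 1.02 ± 0.31 (adjusted p = 0.032, and 0.093 without male 53). Col4a1 had no overlap between the groups. Col28a1 (chromosome 6), a collagen of nerve and other basement membranes, was 15.8, 11.9, 8.74 and 13.8 at day 21 and 54.7, 40.9, 51.5 and 59.6 in DW, a change of 1.97 ± 0.25 (adjusted p = 4.6e-05). Fibrillar chains with high values were not called: Col1a1 was 3287, 4261, 1379.5 and 1434 at day 21 and 3294, 2155, 1736 and 2260.4 in DW (change 0.00 ± 0.37, adjusted p = 1), and Col3a1 changed by 0.64 ± 0.28 (adjusted p = 0.13). In Col1a1 day 21 male 38 was above the DW range, male 37 near its top, and males 53 and 54 below it. Col4a2 also lost its call without day 21 male 37 or DW male 79, 80 or 87 (adjusted p 0.061 to 0.076).

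The same split of the day 21 animals was seen in some further stromal genes, but not in all. Matrix glycoproteins and proteoglycans counted 6 rises and 0 falls among 26 (4 and 0 without male 53), with a median change of 0.41 and of 0.22 without it. Tenascin C (Tnc), a matrix protein of growing tissue, was 21.8, 21.0, 27.3 and 28.9 at day 21 and 54.2, 49.1, 59.5 and 48.0 in DW, a change of 1.07 ± 0.14 (adjusted p = 9.7e-05). In Tnc, males 53 and 54 were instead above 37 and 38. Dpt, which binds collagen fibrils, was 293, 346, 168 and 189.6 at day 21 and 472, 417, 427 and 435 in DW, a change of 0.87 ± 0.18 (adjusted p = 0.0033). Thbs2 changed by 0.84 ± 0.17 (adjusted p = 0.0023) and Sparc by 0.70 ± 0.18 (adjusted p = 0.012). Fibronectin (Fn1) was 1162, 1082, 327 and 404 at day 21 and 1093, 849, 649 and 683 in DW and was not called (change 0.33 ± 0.36, adjusted p = 0.59), with males 37 and 38 again above 53 and 54. In collagen processing 3 of 21 genes rose (Lox, Adamts2 and Plod1, changes 0.82 ± 0.24, 0.69 ± 0.19 and 0.55 ± 0.17) and 0 fell, and none was called without male 53. Serpinh1, the collagen chaperone, was not called (change -0.11 ± 0.17, adjusted p = 0.71). Among 15 proteases and inhibitors 2 rose and 1 fell (1 and 1 without male 53): Mmp11 was 2.29, 2.71, 1.46 and 2.96 at day 21 and 5.45, 6.72, 6.95 and 6.33 in DW (change 1.15 ± 0.20, adjusted p = 0.00078), and Adamts1 changed by -0.89 ± 0.25 (adjusted p = 0.022). Progenitor and stromal surface genes counted 3 rises of 20 (Cd34, Ly6a and Fap, changes 0.52 ± 0.16, 0.60 ± 0.19 and 0.49 ± 0.16), 0 without male 53, and Pi16, a marker of the earliest progenitors, was 83.4, 90.4, 22.9 and 43.0 at day 21 and 125, 106, 93.5 and 89.7 in DW (change 0.96 ± 0.35, adjusted p = 0.068). The labels do not say what the animal numbers stand for. Day 21 males come in the pairs 37 and 38, and 53 and 54. DW males come in the pairs 79 and 80, and 86 and 87. Every run of numbers holds animals of 1 age, so run and age cannot be told apart. Across genes, recovered reads differed less within these pairs than between animals of different pairs. The chi-square per degree of freedom was 79 (79 and 80) and 90 (86 and 87) in DW, against 165 to 250 across pairs. At day 21 it was 203 (37 and 38) and 134 (53 and 54), against 299 to 364 across pairs. The correlation of log2 values was not higher for 53 and 54 (0.980) than for 38 and 54 (0.991). Lox also lost its call without day 21 male 54 or DW male 79 or 87 (adjusted p 0.066 to 0.069), with the compared groups fitted alone (adjusted p = 0.11) and with edgeR (adjusted p = 0.058). Adamts2 also lost its call without day 21 male 54 or DW male 79 (adjusted p 0.055 to 0.065) and with the compared groups fitted alone (adjusted p = 0.11). Plod1 also lost its call without day 21 male 37 or DW male 79, 80, 86 or 87 (adjusted p 0.054 to 0.084). Adamts1 lost its call without day 21 male 38 or DW male 80 or 86 (adjusted p 0.057 to 0.067). Cd34 also lost its call without day 21 male 54 or DW male 79, 86 or 87 (adjusted p 0.061 to 0.1), with the compared groups fitted alone (adjusted p = 0.066) and with edgeR (adjusted p = 0.057). Ly6a also lost its call without day 21 male 54 or DW male 79, 86 or 87 (adjusted p 0.056 to 0.12), with the compared groups fitted alone (adjusted p = 0.12), with edgeR (adjusted p = 0.083) and with the run of animal numbers as a random effect (adjusted p = 0.053). Fap also lost its call without day 21 male 54 or DW male 79, 80, 86 or 87 (adjusted p 0.071 to 0.13), with the compared groups fitted alone (adjusted p = 0.12), with TMM log2 CPM (adjusted p = 0.056), with edgeR (adjusted p = 0.083) and with the run of animal numbers as a random effect (adjusted p = 0.063).

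**Figure D4:**
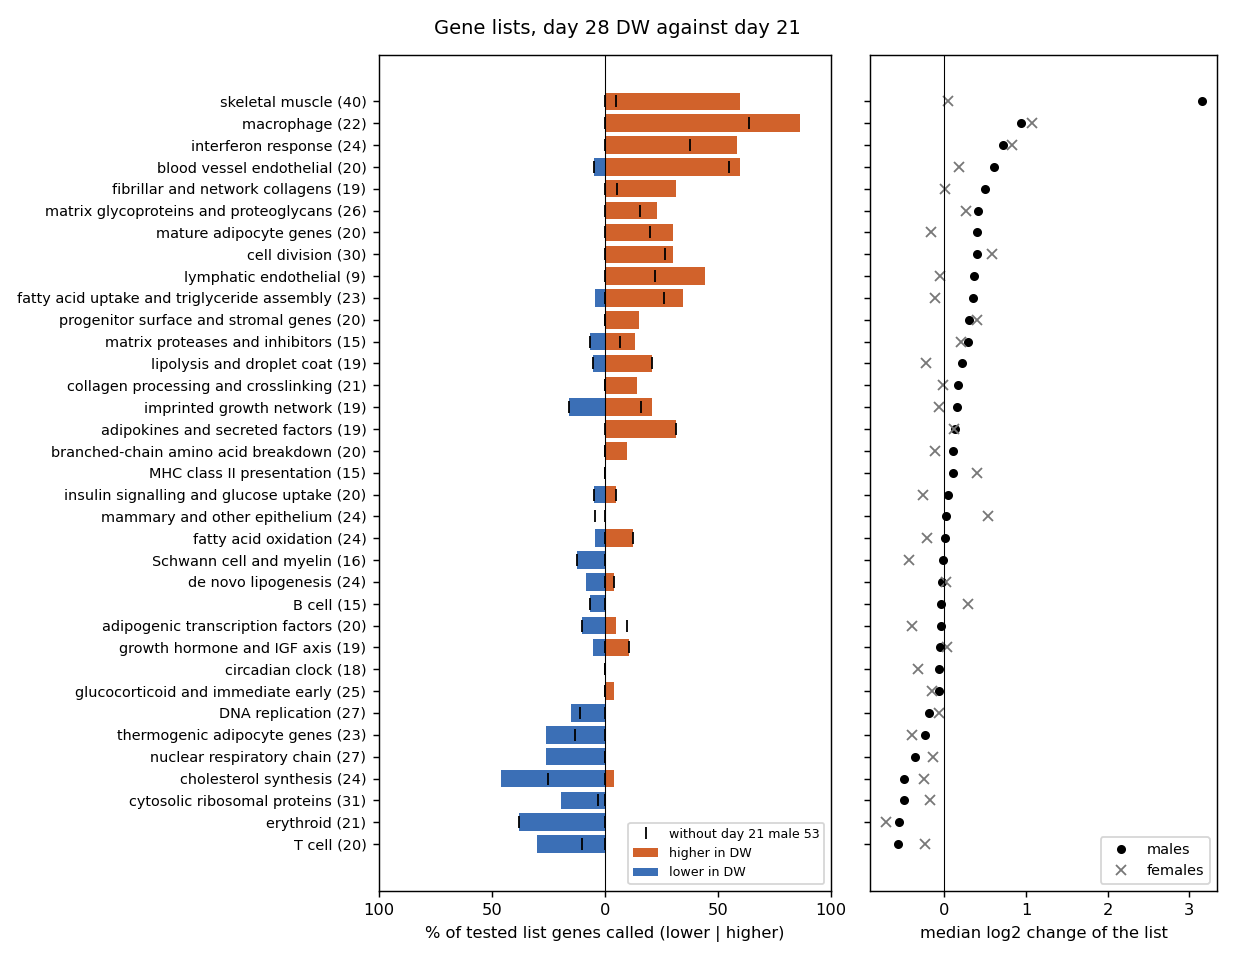
Left, percent of tested genes called higher (orange, to the right) or lower (blue, to the left) in DW males for 35 gene lists, with the number tested in parentheses and the percent without day 21 male 53 as black ticks. Right, the median log2 change of each list in males (black circles) and females (grey crosses); macrophage and interferon medians are close in both sexes, while the skeletal muscle median is 3.15 in males and 0.05 in females.

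Of 30 cell division genes 9 rose and 0 fell (8 and 0 without male 53), with a median change of 0.39, and 28 of 30 had a positive sign. Mki67, which coats chromosomes in dividing cells, was 57.1, 71.2, 67.6 and 57.9 at day 21 and 95.7, 90.6, 92.0 and 128 in DW, a change of 0.66 ± 0.14 (adjusted p = 0.0034). Bub1b, a kinase of the spindle checkpoint, was 10.7, 12.1, 12.8 and 12.7 at day 21 and 20.5, 20.4, 19.9 and 22.9 in DW, a change of 0.75 ± 0.12 (adjusted p = 0.00055). Cenpe, the kinetochore motor, changed by 0.78 ± 0.15 (adjusted p = 0.0016) and Kif23, a motor of the midbody, by 0.66 ± 0.16 (adjusted p = 0.01). The 4 DW males were above the 4 day 21 males in each of these genes. Top2a overlapped and was not called (change 0.34 ± 0.18, adjusted p = 0.2). Of 27 replication genes 0 rose and 4 fell (0 and 3 without male 53), with a median change of -0.19. Thymidylate synthase (Tyms) was 8.84, 10.4, 12.8 and 9.12 at day 21 and 6.62, 6.38, 6.22 and 5.51 in DW, a change of -0.64 ± 0.16 (adjusted p = 0.0097). Uhrf1 changed by -0.53 ± 0.15 (adjusted p = 0.023), cyclin E1 (Ccne1) by -0.43 ± 0.10 (adjusted p = 0.0055), and Pcna, the sliding clamp, was not called (change -0.24 ± 0.12, adjusted p = 0.19). Uhrf1 lost its call without day 21 male 38 or 54 or DW male 79 or 87 (adjusted p 0.052 to 0.079) and with the compared groups fitted alone (adjusted p = 0.052).

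Promoters of dividing-cell genes often carry a CCAAT box, bound by the factor NF-Y, and the cell cycle homology element TTTGAA. The upstream bases of the 4 cell division genes with the smallest adjusted p are printed here because these genes rose together. They come from RefSeq on GRCm38.p6, run 5′ to 3′ towards the transcription start, and have both elements in capitals in either orientation. The reverse of the CCAAT box reads ATTGG, and that of the homology element reads TTCAAA.
Bub1b (chr2:118597961-118598210, plus strand): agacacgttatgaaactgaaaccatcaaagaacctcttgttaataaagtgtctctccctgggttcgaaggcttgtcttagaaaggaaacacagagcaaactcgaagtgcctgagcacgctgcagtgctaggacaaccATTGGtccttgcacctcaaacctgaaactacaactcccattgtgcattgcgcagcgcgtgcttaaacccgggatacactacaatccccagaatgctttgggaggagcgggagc
Cenpe (chr3:135212313-135212562, plus strand): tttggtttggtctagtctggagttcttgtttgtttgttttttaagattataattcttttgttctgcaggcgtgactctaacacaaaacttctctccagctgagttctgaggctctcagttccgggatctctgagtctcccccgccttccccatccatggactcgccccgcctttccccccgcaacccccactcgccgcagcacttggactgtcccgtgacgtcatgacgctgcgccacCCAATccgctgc
Mki67 (chr7:135716380-135716629, minus strand): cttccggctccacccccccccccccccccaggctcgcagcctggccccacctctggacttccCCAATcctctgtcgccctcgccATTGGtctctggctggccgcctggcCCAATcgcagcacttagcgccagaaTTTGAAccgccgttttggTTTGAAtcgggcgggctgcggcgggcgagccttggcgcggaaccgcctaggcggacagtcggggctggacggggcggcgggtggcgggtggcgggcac
Kif23 (chr9:61946800-61947049, minus strand): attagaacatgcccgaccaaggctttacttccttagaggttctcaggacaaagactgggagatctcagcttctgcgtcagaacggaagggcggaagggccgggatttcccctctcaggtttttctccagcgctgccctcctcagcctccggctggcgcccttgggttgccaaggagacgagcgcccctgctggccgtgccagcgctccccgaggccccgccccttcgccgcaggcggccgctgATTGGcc
Bub1b, Cenpe and Kif23 each hold 1 CCAAT and 0 TTTGAA, and Mki67 holds 3 and 2. Of the 30 cell division genes 25 had an entry. For 17 of these the bases just after the start were found in a transcript of the gene. Within the 250 bases before the start, 19 of 25 (76%) held a CCAAT and 9 of 25 (36%) a TTTGAA, against 35.9% and 11.4% of 12458 genes tested with an entry. The first entry of each gene was used. A match describes the letters and does not show that a factor binds there.

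Of 19 genes of the imprinted growth network 4 rose and 3 fell (3 and 3 without male 53). Dlk1, which keeps preadipocytes undifferentiated, was 6.99, 8.64, 4.70 and 8.59 at day 21 and 2.62, 2.69, 2.50 and 2.09 in DW, a change of -1.22 ± 0.26 (adjusted p = 0.0042). Magel2 was 0.414, 1.08, 3.94 and 1.13 at day 21 and 0.169, 0.0450, 0.0189 and 0 in DW, close to the floor in DW, a change of -1.16 ± 0.22 (adjusted p = 0.0019), and its neighbour Ndn changed by -0.71 ± 0.15 (adjusted p = 0.0043). Peg3 rose from 119, 99.4, 65.1 and 52.0 to 167, 152, 185 and 198 (change 1.12 ± 0.25, adjusted p = 0.0056). Mest, a marker of fat depot expansion, was 45.2, 39.9, 33.4 and 25.6 at day 21 and 74.5, 60, 60.5 and 64.97 in DW, a change of 0.86 ± 0.22 (adjusted p = 0.014). Nnat had the highest mean of the uncalled genes (change 0.21 ± 0.32, adjusted p = 0.7). In the growth hormone and IGF list 2 of 19 rose (Igfbp7 and Igf2r, changes 0.40 ± 0.11 and 0.38 ± 0.10) and 1 fell (Pappa, change -0.58 ± 0.17), and without male 53 the count was 2 and 0. Igf1 was 649, 545, 356 and 299 at day 21 and 387, 255, 346 and 398 in DW and was not called (change -0.37 ± 0.21, adjusted p = 0.25). Of 31 cytosolic ribosomal protein genes 0 rose and 6 fell, all 31 had a negative sign and the median change was -0.49, but 0 rose and 1 fell without male 53. Rps6 was 431, 462, 462 and 548 at day 21 and 313, 325, 324 and 259.8 in DW (change -0.64 ± 0.15, adjusted p = 0.0069), and Rps15a was 233, 225, 486 and 293 at day 21 and 167, 163, 177 and 139 in DW, with male 53 far above the others (adjusted p = 0.022, and 0.1 without it). Igfbp7 lost its call without day 21 male 54 or DW male 79 (adjusted p 0.055 to 0.069). Pappa also lost its call without DW male 80 or 87 (adjusted p 0.051 to 0.057) and with the compared groups fitted alone (adjusted p = 0.081). Rps15a also lost its call without DW male 87 (adjusted p = 0.074).

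Among the falls singled out above, those with the largest changes were of red cell genes. Of 21 tested erythroid genes 0 rose and 8 fell, also 0 and 8 without male 53, with a median change of -0.56, and they summed to 669.5 to 2276 at day 21 and to 259 to 454 in DW. Alas2 (chromosome X), which starts haem synthesis in red cell precursors, was 50.2, 43.9, 90.9 and 112 at day 21 and 18.7, 19.0, 16.6 and 14.4 in DW, a change of -1.95 ± 0.37 (adjusted p = 0.002). The globin genes Hba-a1, Hba-a2 and Hbb-bt changed by -1.83 ± 0.39, -1.90 ± 0.43 and -1.89 ± 0.44 (adjusted p = 0.0037, 0.0056 and 0.0072). They have near-identical copies between which reads may be split, so their single values are uncertain. Bpgm (chromosome 6), the red cell enzyme that makes bisphosphoglycerate, is not on the list and fell from 55.4, 50.4, 89.8 and 103 to 28.9, 31.4, 29.8 and 27.8, a change of -1.25 ± 0.25 (adjusted p = 0.0026). Tent5c (chromosome 3), a poly(A) polymerase expressed in red cell precursors and plasma cells, was 40.3, 27.7, 44.0 and 38.8 at day 21 and 14.6, 14.3, 15.9 and 13.8 in DW, a change of -1.29 ± 0.20 (adjusted p = 0.00035). In all of these genes every DW male was below every day 21 male, which was a condition for singling them out. Slc25a37, the mitochondrial iron importer of red cell precursors, changed by -0.69 ± 0.15 (adjusted p = 0.0035).

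Other large falls came from single genes of several kinds. Nme1 (chromosome 11), a nucleoside diphosphate kinase, was 14.1, 12.7, 28.6 and 11.8 at day 21 and 5.94, 6.04, 5.97 and 4.99 in DW, a change of -1.32 ± 0.22 (adjusted p = 0.00068). Its day 21 values were led by male 53, and the call held without it (adjusted p = 0.0014). Ppp1r3b (chromosome 8), which brings a phosphatase to glycogen, was 114, 125, 149 and 225 at day 21 and 94.7, 61.8, 33.4 and 70 in DW, a change of -1.27 ± 0.33 (adjusted p = 0.014). Fndc5 (chromosome 4), the precursor of irisin, was 12.5, 17.3, 20.0 and 16.9 at day 21 and 5.84, 5.81, 7.17 and 7.11 in DW, a change of -1.23 ± 0.24 (adjusted p = 0.002). S100b (chromosome 10), a calcium-binding protein of glia and adipocytes, was 15.1, 23.0, 24.8 and 25.3 at day 21 and 7.94, 8.66, 9.62 and 8.98 in DW, a change of -1.21 ± 0.20 (adjusted p = 0.00073). Of 16 Schwann cell and myelin genes 0 rose and 2 fell, among them S100b, also without male 53. Ppp1r3b lost its call without DW male 86 (adjusted p = 0.058).

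Single genes also stood among the large rises. Elk4 (chromosome 1), a transcription factor that works with serum response factor, was 33.7, 22.8, 15.6 and 17.0 at day 21 and 55.8, 62.3, 62.6 and 75.0 in DW, a change of 1.53 ± 0.28 (adjusted p = 0.0013). Celsr2 (chromosome 3), a cadherin of planar cell polarity, was 15.6, 17.6, 5.49 and 22.0 at day 21 and 37.1, 34.3, 39.8 and 49.6 in DW, a change of 1.48 ± 0.36 (adjusted p = 0.0099). The Mup genes on chromosome 4, whose proteins carry pheromones and are made mainly by liver, had the largest changes of these 23: Mup11 was 13.2, 11.6, 11.9 and 14.3 at day 21 and 80.9, 78.3, 108 and 122 in DW, a change of 2.81 ± 0.30 (adjusted p = 2.1e-05), and Mup22 changed by 2.69 ± 0.31 (adjusted p = 3.2e-05). These genes belong to a family of near-identical copies, so which copy gave the reads is uncertain. Fkbp5, a glucocorticoid target, was the single called gene of 25 on the list of glucocorticoid and immediate early genes. It was 33.9, 37.6, 21.5 and 36.2 at day 21 and 75.0, 96.4, 74.5 and 73.5 in DW, a change of 1.30 ± 0.35 (adjusted p = 0.018, and 0.068 without male 53). None of 18 circadian clock genes was called, and Nr1d1 was 91.4, 106, 134 and 158 at day 21 and 122, 184, 246 and 198 in DW (change 0.60 ± 0.42, adjusted p = 0.36).

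Skeletal muscle genes held the largest fitted changes, and most of their calls were lost without male 53. Of 40 tested 24 rose and 0 fell, with a median change of 3.15. Without male 53 the count was 2 and 0, the genes kept being Myh4 and Ckm, and with edgeR it was 14 and 0. Myh4, a fast myosin, was 0.201, 289, 6.06 and 0 at day 21 and 739, 166, 2973 and 2563 in DW (change 7.13 ± 2.00, adjusted p = 0.021, edgeR adjusted p = 0.17). Creatine kinase (Ckm) was 0.0776, 42.4, 0.894 and 0.0498 at day 21 and 129, 28.7, 642 and 358 in DW (change 5.80 ± 1.56, adjusted p = 0.016, edgeR adjusted p = 0.12). In both genes DW male 80 was below day 21 male 38. Tpm2, the beta tropomyosin, had no overlap, from 18.0, 43.4, 17.6 and 32.2 to 109.9, 44.1, 368 and 236 (change 2.43 ± 0.68, adjusted p = 0.02, and 0.064 without male 53). None of 24 epithelial genes was called, and the keratin gene Krt5 was 0, 0.0109, 0 and 1.29 at day 21 and 0, 0, 0.0566 and 2.52 in DW. Myh4 lost its call without day 21 male 37 or 54 or DW male 86 or 87 (adjusted p 0.052 to 0.066), with edgeR (adjusted p = 0.17) and with DESeq2 (adjusted p = 0.073). Ckm lost its call without DW male 86 or 87 (adjusted p = 0.055) and with edgeR (adjusted p = 0.12). Tpm2 also lost its call without DW male 86 or 87 (adjusted p 0.072 to 0.077).

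The same week in females gave a second set of animals. Of 16005 genes 1938 (12.1%) were called between day 21 and DW females, 952 higher and 986 lower. The count was 495 when these 8 libraries were fitted alone, 3123 without DW female 76 and 1071 without DW female 83. Both sexes called 702 genes, which are 29.3% of the male and 36.2% of the female calls, and 697 of them had the same direction, 402 higher and 295 lower. Of the 2395 male calls 1994 (83.3%) had the same sign in females, against 60.9% of all genes. Lists that moved in males and females alike by their medians were macrophage (0.94 and 1.08), interferon response (0.72 and 0.83), erythroid (-0.56 and -0.72) and cell division (0.39 and 0.58). Against 5.95% of all genes called higher and 6.16% called lower in females, 17 of 22 macrophage, 15 of 24 interferon and 15 of 30 cell division genes rose, and 12 of 21 erythroid genes fell. Scd1 changed by 1.85 ± 0.41 in females (adjusted p = 0.0052), Folr2 by 1.54 ± 0.18 (adjusted p = 2.3e-05) and Alas2 by -2.53 ± 0.37 (adjusted p = 0.00023).

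Other lists had different medians in the sexes. Blood vessel genes had a median change of 0.61 in males and 0.18 in females, mature adipocyte genes 0.40 and -0.17, fatty acid uptake genes 0.36 and -0.12, collagens 0.50 and 0.01, and muscle genes 3.15 and 0.05. Vwf changed by 0.28 ± 0.20 in females (adjusted p = 0.39), Plin4 by -0.23 ± 0.21 (adjusted p = 0.51) and Col4a1 by 0.20 ± 0.24 (adjusted p = 0.63). The difference of the changes between the sexes was tested gene by gene as an interaction, and of the genes on all lists Lpin1 alone was called. Over all genes 11 (0.0687%) were called. The count was 0 with a pseudocount of 0.1 and 0 with edgeR, which had 2688 genes at an unadjusted p under 0.05, and 309 with DESeq2, and leaving out single libraries moved it between 1 and 52, the latter without DW female 77. A difference between the sexes was thus not shown for Vwf, Plin4 or Col4a1.

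The 5 interaction genes with the smallest p-values were Capn8, Gramd1b, Tspan1, Gpat4 and Lpin1. Lpin1 (chromosome 12), a phosphatidate phosphatase of triglyceride synthesis, was 246, 276, 274 and 352 in day 21 males and 324, 422, 506 and 475 in DW males, and 459, 315, 348 and 345 in day 21 females and 273, 286, 239.9 and 201 in DW females. It was higher in DW males (change 0.58 ± 0.14) and lower in DW females (change -0.55 ± 0.14), an interaction of 1.13 ± 0.20 (limma adjusted p = 0.038). Gpat4 (chromosome 8), an acyltransferase of the same pathway, was 128, 128, 123 and 138 and 150.4, 171, 179.8 and 187 in males and 211, 141, 159 and 153 and 128, 125, 120.2 and 110.0 in females. Its interaction was 0.85 ± 0.15 (limma adjusted p = 0.038). Gramd1b (chromosome 9), which carries cholesterol from the plasma membrane to the endoplasmic reticulum, changed by 0.80 ± 0.14 in males and -0.41 ± 0.14 in females, an interaction of 1.20 ± 0.20 (limma adjusted p = 0.038). Capn8 and Tspan1, genes of epithelial cells, were at or near 0 in all 8 males and higher in DW than in day 21 females, so their interaction is set by the female change over values near 0 in males. Capn8 was at most 0.149 in these males, and 0.376, 0.592, 0.251 and 0.880 in day 21 females and 3.80, 3.51, 2.46 and 3.32 in DW females. Tspan1 was at most 0.179 in these males and 0.528, 1.02, 0.366 and 1.08 and 3.26, 2.57, 3.55 and 3.47 in females. The interaction of Lpin1 was lost without day 21 male 37, 38 or 53, DW male 80, 86 or 87, day 21 female 30 or 55 or DW female 82 or 83 (adjusted p 0.059 to 0.12), with a pseudocount of 0.1 (adjusted p = 0.06), with the compared groups fitted alone (adjusted p = 0.16), with TMM log2 CPM (adjusted p = 0.083) and with edgeR (adjusted p = 0.079). That of Gpat4 was lost without day 21 male 37, 38, 53 or 54, DW male 80, 86 or 87, day 21 female 30 or 55 or DW female 82 or 83 (adjusted p 0.056 to 0.12), with a pseudocount of 0.1 (adjusted p = 0.06), with the compared groups fitted alone (adjusted p = 0.11), with TMM log2 CPM (adjusted p = 0.083) and with edgeR (adjusted p = 0.091). For Gramd1b it was lost without day 21 male 37, 38 or 53, DW male 80 or 87, day 21 female 30 or 55 or DW female 83 (adjusted p 0.056 to 0.11), with a pseudocount of 0.1 (adjusted p = 0.06), with TMM log2 CPM (adjusted p = 0.083) and with edgeR (adjusted p = 0.078). That of Capn8 was lost with a pseudocount of 0.1 (adjusted p = 0.16), with TMM log2 CPM (0.45), with edgeR (0.55) and with DESeq2 (0.65). Tspan1 lost its interaction in these settings too (adjusted p = 0.21, 0.46, 0.79 and 0.85). It was also lost without day 21 male 37, 38, 53 or 54 or DW male 79, 80 or 87. The same held without day 21 female 30 or 55 or DW female 82 or 83 (adjusted p 0.059 to 0.12 over these fits). The epithelial list had a median change of 0.54 in females, with 6 of 24 genes called higher, and of 0.02 in males.

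**Figure D5:**
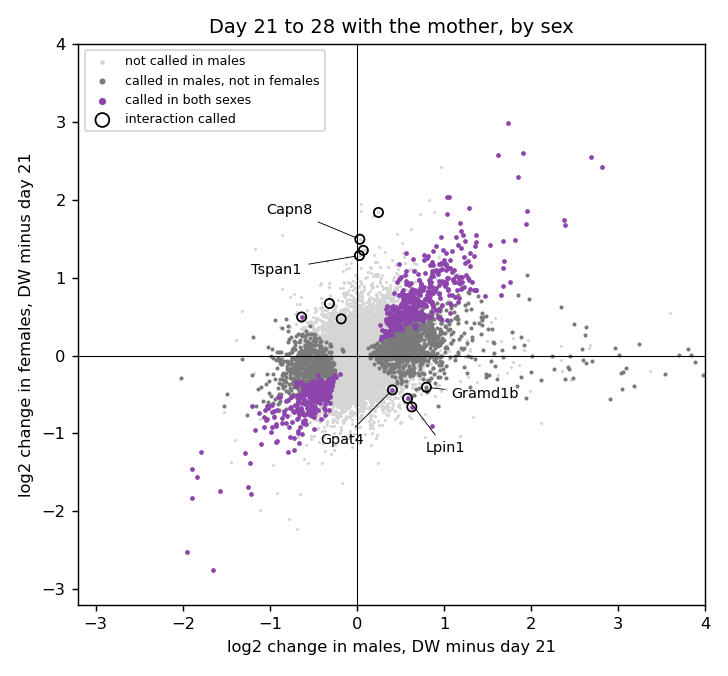
Log2 change from day 21 to DW in males (horizontal) against females (vertical), 1 point per gene; 13 genes lie outside the axes. Purple points are the 702 genes called in both sexes, nearly all in the lower left and upper right, and black rings the 11 genes with a called interaction.

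The SW males give the level of the same genes at day 28 after weaning and are set beside the DW males without a test. The cell division score, the mean log2(value + 1) of the list, was 3.09 ± 0.19 (SD, n = 4) at day 21, 3.50 ± 0.12 in DW and 2.59 ± 0.20 in SW males. Mki67 was 47.5 ± 7.19 in SW males against 63.4 ± 7.04 at day 21 and 102 ± 17.7 in DW (mean ± SD, n = 4 each). Fkbp5 was 37.1 ± 14.2 in SW, 32.3 ± 7.37 at day 21 and 79.9 ± 11.1 in DW males. Mest was 30.5 ± 9.81 in SW, 36.0 ± 8.47 at day 21 and 65 ± 6.72 in DW. In these 3 genes the SW mean lay near or below that of day 21. Other genes had close means at day 28 in both groups: Scd1 was 33332 ± 3411 in SW and 35748 ± 6798 in DW males, Adipoq 1401 ± 79.1 and 1411 ± 115, Folr2 37.0 ± 6.40 and 39.4 ± 4.43, and Alas2 16.3 ± 11.9 and 17.2 ± 2.14. The macrophage score was 5.04 ± 0.16 in SW and 5.12 ± 0.06 in DW males, and the erythroid score 2.29 ± 0.31 and 2.47 ± 0.20 (SD, n = 4).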

How the data were processed

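Poly(A) RNA of inguinal fat from 24 mice (6 groups of 4) was sequenced after library preparation with a KAPA mRNA HyperPrep kit, per the labels' protocols. The submitters' processing notes name fastp, HISAT2, featureCounts, DESeq2 1.38.3 and the build mm10, without their order or roles. The authors deposited a normalised signal per gene and library, a read number divided by a factor of that library, and 100% of these values came out as whole reads (within 0.1). For each comparison the authors deposited fold changes (log2) with adjusted p-values; of these, only those of day 21 against DW males were read, for the counts credited to the authors' deposited table. The deposited gene positions were not used.

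Of 16208 rows, 90 repeats were left out, and filterByExpr on the recovered reads (minimum count 10) kept 16005 of 16118 genes. The fit was limma 3.58.1 in R 4.3.3 (lmFit, eBayes with a variance trend) on log2(value + 1) of all 24 libraries with 6 group coefficients and 18 residual degrees of freedom, with Benjamini-Hochberg adjustment. On the recovered reads edgeR 4.0.16 with TMM called 2283 genes in males and DESeq2 1.42.0 called 3077. Other settings are in the closing section. The comparison, the gene lists and the rule for named genes were chosen with earlier results of these data known, so lists were only counted and no list was tested. The named genes are the 12 largest rises and falls described in the report, the 5 smallest interaction p-values, and up to 3 called genes and the most abundant uncalled gene of each list, with any other list gene allowed; some of these genes are not reported here. No pair of replicates agreed within sampling noise, so none was merged. The script was tested on simulated data.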

Additional observations from a re-analysis of the deposited data

Results flagged for a closer look

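A library far from the other 3 of its group was looked for in 362 sets of 4 values, and 19 were found, against 18.1 that chance gives at 1 in 20. The number of genes detected in day 21 male 53 was 14054, against 15859 to 15977 in the other day 21 males. On the log2(value + 1) scale day 21 male 54 stood apart in Mup22 (4.55, others 3.91 to 3.99) and Krt5 (1.19, others 0 to 0.02), male 37 in Cldn5 (3.88, others 4.69 to 4.84), male 53 in Kdr (7.69, others 8.07 to 8.14), and male 38 in Angptl4 (7.62, others 7.02 to 7.08) and Ckm (5.44, others 0.07 to 0.92). DW male 79 stood apart in Pck1 (10.4, others 11.0 to 11.0), Acsl1 (11.0, others 11.3 to 11.4) and Adgre1 (4.59, others 4.46 to 4.47). DW male 80 did so in Fkbp5 (6.61, others 6.22 to 6.25), and DW male 86 in Rbp7 (6.57, others 6.19 to 6.23) and Sncg (7.62, others 8.13 to 8.20). DW male 87 stood apart in Hbb-bt (3.95, others 4.81 to 4.93), Nme1 (2.58, others 2.80 to 2.82), Retnla (5.75, others 5.26 to 5.32), Mki67 (7.01, others 6.52 to 6.60), Rps6 (8.03, others 8.30 to 8.35) and Krt5 (1.81, others 0 to 0.08). The change from day 21 to DW differed between males and females, by limma's interaction test, in Capn8 (-1.46), Gramd1b (1.20), Tspan1 (-1.26), Gpat4 (0.85) and Lpin1 (1.13), given as the male minus the female log2 change. None of these 5 was called by edgeR or with a pseudocount of 0.1. Capn8 and Tspan1 are at or near 0 in these males, so their difference is set by the female change.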

How the results depend on the processing

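No paired analysis was possible because the groups share no animal numbers. The number of genes called in males was 2395, and 2021 to 3077 under the 8 other filters, scalings, pseudocounts, fits and tests planned. Leaving out single males gave 1236 to 2555 genes, with 1374 without day 21 male 53, 1545 without DW male 86 and 1236 without DW male 87. In females the count was 1938, and 495 when fitted on the compared groups alone. Leaving out single females gave 1071 to 3123. For the interaction the count was 11. It was 0 with a pseudocount of 0.1, 0 with TMM log2 CPM, 0 with edgeR, 7 with the compared groups alone and 309 with DESeq2, and 1 to 52 when single animals were left out. A setting chosen after seeing the data, with the run of animal numbers as a random effect (consensus correlation 0.0836), called 1888 genes in males, 1579 in females and 18 for the interaction. Of 113 named genes called in males, 90 to 113 stayed called under any single setting, fewest without DW male 87 and 91 without day 21 male 53. None changed direction, but these settings share most or all of the compared animals. Of 595 list medians recomputed under these settings, 9 moved by more than the spread between animals. The comparison rests on 4 animals a group, and nothing shows that each recovered read is its own molecule.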
